A study of Mus musculus with 20 samples.

Results

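Kidney RNA of orchidectomised mice was examined for 9 genes that encode receptors of peptide, steroid and thyroid hormones. They are Prlr (prolactin receptor), Ghr (growth hormone receptor), Esr1 (oestrogen receptor alpha), Nr3c1 (glucocorticoid receptor), Nr3c2 (mineralocorticoid receptor), Thra and Thrb (thyroid hormone receptors alpha and beta), Insr (insulin receptor) and Gcgr (glucagon receptor). The genes were taken by symbol from the 24762 genes of the joined count tables. All 9 passed the filter on low counts that left 15549 genes for testing. The 20 libraries fall into ARLmon/Y males given testosterone, ARLmon/Y males given vehicle, wild type males given testosterone and wild type males given vehicle, with 5 libraries in each group. Testosterone or vehicle was given for 4 days. All mice were on the C57BL/6J strain and all had been orchidectomised, so no group kept its testes and an intact male is not among them. ARLmon is a mutant allele of the X-linked androgen receptor gene, made to disturb dimerisation of the receptor through its ligand-binding domain. Whole kidneys were used, so that a lower value cannot be told apart as fewer cells of a type or as less RNA per cell. Separate animals for the libraries are not stated in the labels, and the p values therefore rest on the variation among these libraries, part of which may be technical.

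Prolactin and growth hormone receptors belong to the class I cytokine receptors, which span the membrane and signal through the kinase JAK2 to STAT5. Proteins such as CISH and the SOCS family, whose genes STAT5 induces, damp the signal. The steroid and thyroid hormone receptors are transcription factors of the nuclear receptor family, bound by hormones that enter the cell. The mineralocorticoid receptor sets sodium reabsorption in the distal nephron, and enzymes of the 11-beta-hydroxysteroid dehydrogenase family decide how much active glucocorticoid reaches both corticosteroid receptors. The insulin receptor is a tyrosine kinase and the glucagon receptor couples to cyclic AMP. The mouse kidney differs between the sexes, and the androgen receptor of the proximal tubule is known for much of that difference.

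Library totals ran from 8342000 to 38101526 counts, and from 8342000 to 15422018 in wild type kidneys with testosterone. The known androgen target Odc1 averaged 1509.7 ± 119 CPM in wild type kidneys with testosterone and 206 ± 32.4 CPM in those with vehicle, against 188 ± 26.8 and 202 ± 24.2 CPM in ARLmon kidneys with testosterone and with vehicle (SD, n = 5 per group here and below). CPM is a read count scaled by the size of the library and its TMM factor. That factor was 0.869 to 0.936 in wild type kidneys with testosterone and 0.963 to 1.10 in the other groups. Kidney markers were present in every group: 9 markers of the convoluted proximal tubule summed to between 8534 and 15073 CPM per library. The 6 adrenal markers in the tables summed to between 0.770 and 24.3 CPM per library. The 24.3 CPM was in an ARLmon library with vehicle, a group with a median of 1.87 CPM. In the other groups the sum was at most 2.35 CPM. Genes are called changed where the adjusted p of edgeR's quasi-likelihood test, over all tested genes, is below 0.05, and an error beside a log2 difference is its standard error.

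**Figure D1:**
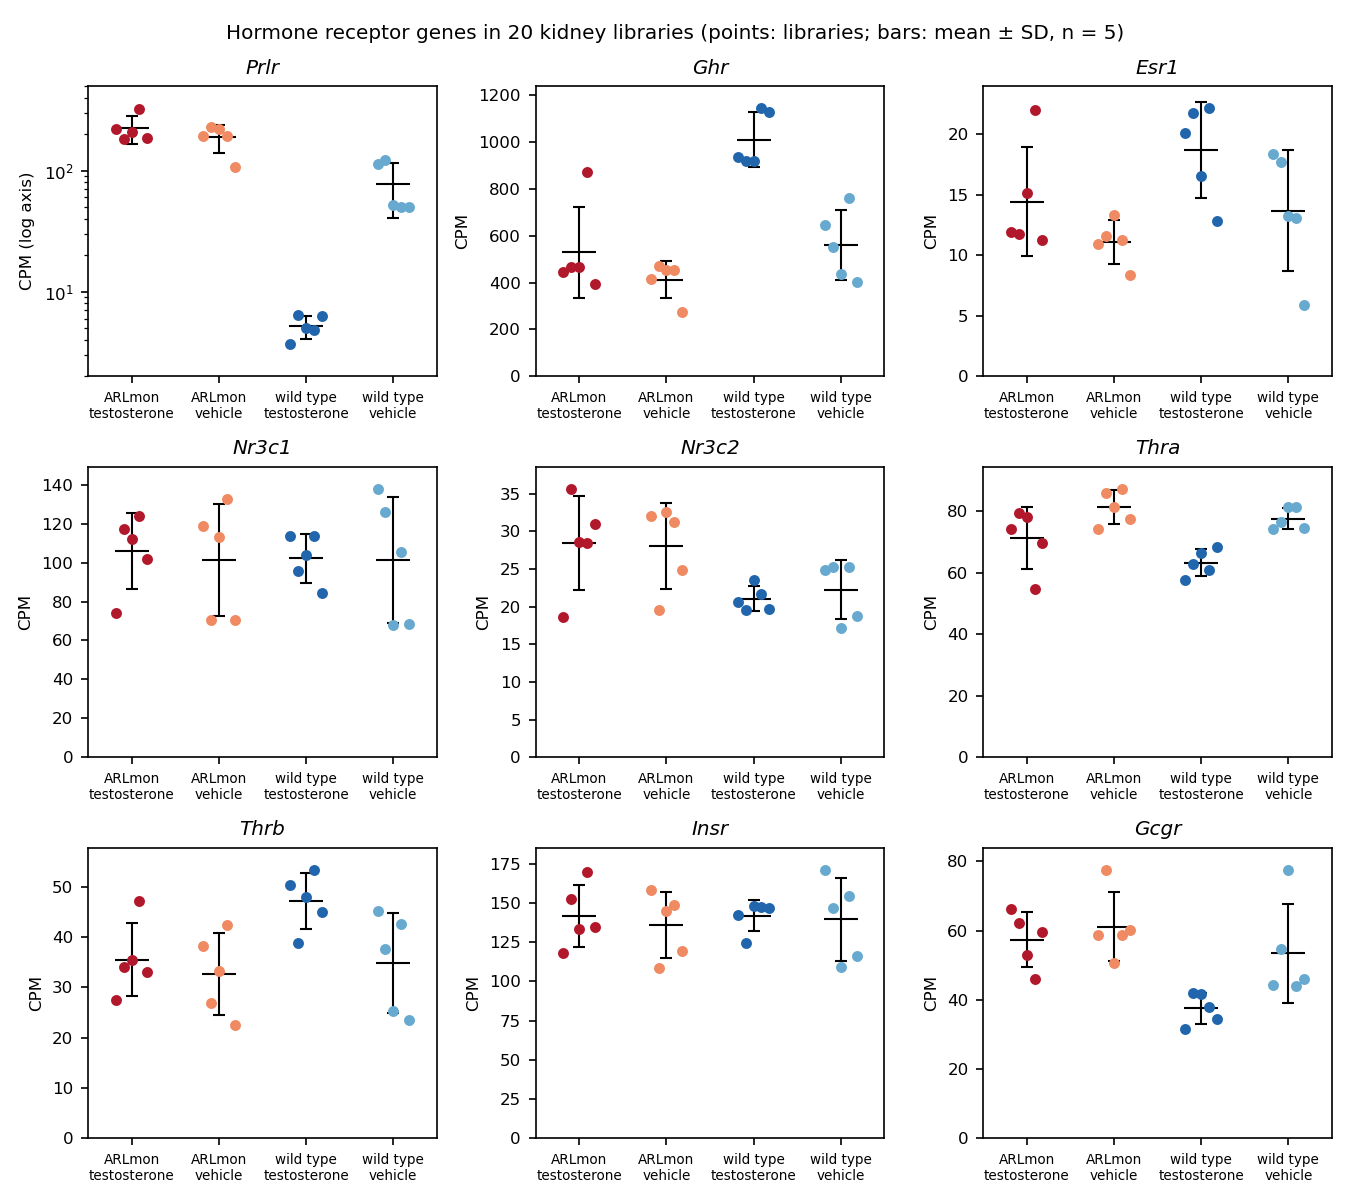
Expression of the 9 receptor genes in CPM (vertical axis, logarithmic for Prlr and linear from 0 for the others) in the 4 groups (horizontal axis). Each point is a library and the bars give the mean ± SD of 5 libraries. Prlr lies between 3.67 and 6.41 CPM in wild type kidneys with testosterone and at 49.7 CPM or above in all other libraries.

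Per kilobase of exon, Ghr stood highest of the receptors in every group. It averaged 58.4 ± 21.5 CPM per kilobase in ARLmon kidneys with testosterone and 45.6 ± 8.79 in those with vehicle, against 112 ± 12.9 and 61.8 ± 16.5 in wild type kidneys with testosterone and with vehicle. Esr1 stood lowest in both ARLmon groups and in wild type kidneys with vehicle, at 1.06 ± 0.329, 0.814 ± 0.132 and 1.00 ± 0.365 CPM per kilobase. In wild type kidneys with testosterone Prlr was lower still, at 0.341 ± 0.0734 CPM per kilobase, against 1.37 ± 0.289 for Esr1. In ARLmon kidneys with testosterone Prlr reached 14.6 ± 3.77 CPM per kilobase, within the spread of Thra (15.4 ± 2.16) above it and Nr3c1 (13.8 ± 2.54) below it.

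The middle of the order was Gcgr, Thra, Nr3c1 and Insr, followed by Thrb and Nr3c2. Wild type kidneys with testosterone had 14.3 ± 1.72 CPM per kilobase of Gcgr, 13.7 ± 0.942 of Thra, 13.3 ± 1.63 of Nr3c1 and 10.3 ± 0.715 of Insr. The first 3 of these differed by less than their spread. In wild type kidneys with vehicle, Prlr (5.07 ± 2.42 CPM per kilobase) and Thrb (4.71 ± 1.34) were also within each other's spread, as were Thrb and Nr3c2 in both ARLmon groups. These levels use the union of annotated exons. With the length of the longest annotated transcript instead, Thra passed Gcgr, at 29.1 ± 4.06 against 22.9 ± 3.18 CPM per kilobase in ARLmon kidneys with testosterone.

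Testosterone in wild type kidneys changed 4 of the 9 receptors. Prlr, Gcgr and Thra fell and Ghr rose, where 15.7% of all tested genes were called, 9.36% higher and 6.36% lower. In these 4 genes, and in none of the other 5, the testosterone and vehicle libraries did not overlap, as held for 12.6% of all tested genes. The median log2 difference of the 9 was 0.014, beside -0.034 for all tested genes. In ARLmon kidneys testosterone changed 0 of the 9. Their libraries overlapped for all 9, while 0.778% of all tested genes showed no overlap. There edgeR called 0 of the 15549 tested genes, or 0%, with 813 at an unadjusted p below 0.05, and DESeq2 and limma-voom also called 0 (844 and 808 genes at an unadjusted p below 0.05). The smallest unadjusted p among the receptors in ARLmon was that of Thra, at 0.0465.

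With testosterone, ARLmon kidneys differed from wild type kidneys in 4 of 9 receptors, Prlr, Gcgr and Nr3c2 being higher and Ghr lower. The background was 31.1% of all tested genes, 15.6% higher and 15.5% lower. The libraries of the genotypes did not overlap for Prlr, Ghr and Gcgr, as held for 22.5% of all genes. With vehicle, ARLmon kidneys differed in Prlr alone, where 4.37% of all genes were called, 1.99% higher and 2.38% lower. Groups overlapped for all 9 receptors under vehicle, and 4.57% of all genes showed no overlap. The difference between the genotypes' responses to testosterone was called for Prlr alone of the 9, against 4.77% of all genes, 1.42% with a higher and 3.34% with a lower value in ARLmon. For the other 8 receptors that test did not pass, so that a response called in wild type and not in ARLmon was not shown to differ between them.

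**Figure D2:**
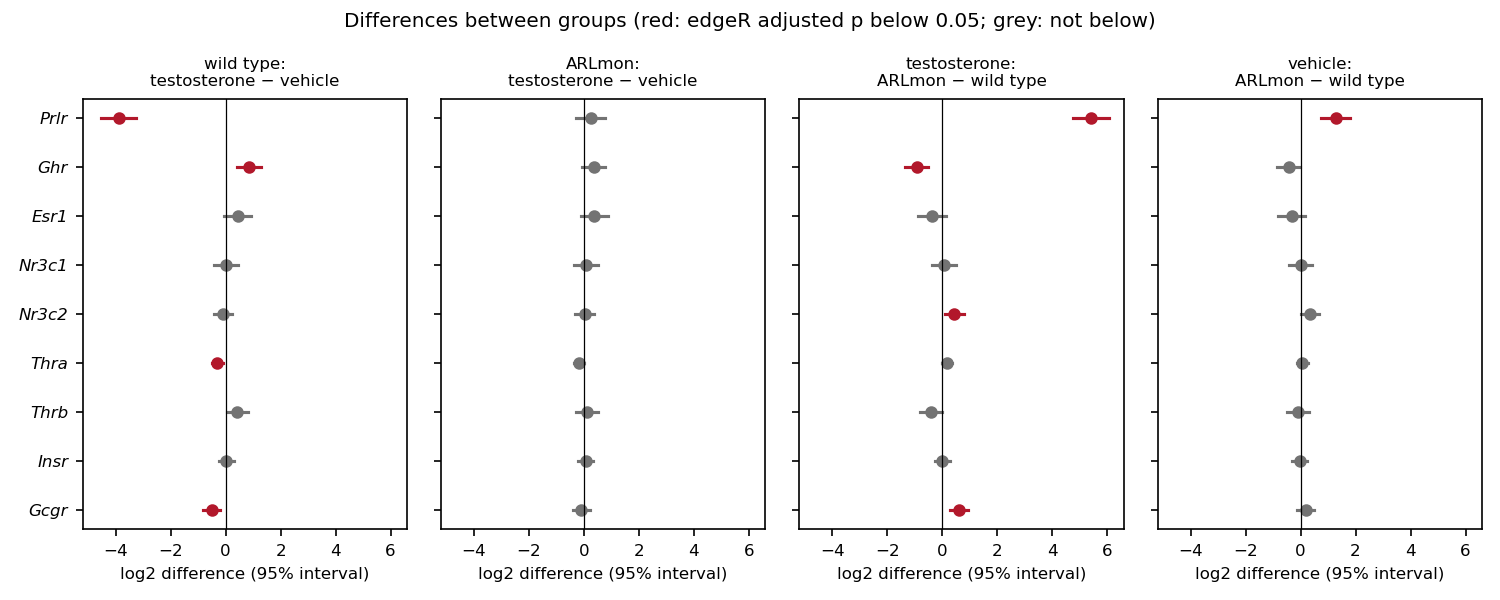
Log2 differences of the 9 receptor genes (horizontal axis, with 95% intervals) in 4 comparisons, testosterone against vehicle within each genotype and ARLmon against wild type under each treatment. Red marks an edgeR adjusted p below 0.05. Prlr is in red at -3.89 for testosterone in wild type, at 5.41 for ARLmon against wild type with testosterone and, alone, at 1.28 with vehicle. In the panel of testosterone in ARLmon no gene is red and every interval but that of Thra holds 0.

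Prlr (chromosome 15, 10177238 to 10349180, GRCm38, plus strand) lies in a gene with 12 annotated transcripts and several starts. One of the 3 promoters that RefSeq gives for it on GRCm38.p6 is shown because Prlr was the receptor that responded most and because this window holds both motifs that were searched. These were AGAACA, the hexamer of androgen and glucocorticoid receptor elements, and TTCNNNGAA, the core of STAT5 sites, both on either strand. They do not overlap each other here, and are in capitals.

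Prlr promoter, chr15:10223656-10223955, plus strand: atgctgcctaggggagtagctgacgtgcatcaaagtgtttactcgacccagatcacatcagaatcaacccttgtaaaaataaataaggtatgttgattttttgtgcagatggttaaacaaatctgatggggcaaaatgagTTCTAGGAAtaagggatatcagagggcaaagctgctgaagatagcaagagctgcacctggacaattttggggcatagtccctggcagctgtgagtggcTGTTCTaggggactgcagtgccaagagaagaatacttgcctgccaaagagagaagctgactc

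The window runs from 250 bases before to 50 bases after the annotated start. TTCNNNGAA begins at position -110 and AGAACA, read on the minus strand as TGTTCT, at position -12 from that start. Among 32851 mouse promoters of the same length, 18.97% held AGAACA and 8.30% held TTCNNNGAA. RefSeq promoters were at hand for 6 of the 9 receptors, 11 windows in all. Of these, 2 held AGAACA (Prlr and Thrb), a share near that of all promoters, and 2 held TTCNNNGAA (Prlr and Esr1). The other Prlr windows held neither motif, and which start the kidney uses was not tested. A match of letters is a description and not a site.

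In wild type kidneys with testosterone, Prlr had 3.67, 6.41, 5.04, 4.80 and 6.24 CPM, against 114, 122, 52.2, 49.7 and 50.3 CPM in wild type kidneys with vehicle. The vehicle libraries GC078602 and GC078603 stood well above the other 3 of their group, and every testosterone library lay far below all of them. The difference was -3.89 ± 0.31 on the log2 scale, a level 14.8-fold lower (95% interval -4.53 to -3.24, adjusted p = 9.15e-09). The testosterone libraries held 27 to 65 reads of the gene, so the low level is counted and not at 0. Without any 1 library the log2 difference ranged between -4.01 and -3.66.

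In ARLmon kidneys with testosterone Prlr had 220.4, 182, 208, 323 and 186 CPM, against 194, 227, 223, 192 and 108 CPM in ARLmon kidneys with vehicle. One library of each group stood apart, GC078615 above the rest with testosterone and GC078621 below the rest with vehicle, and the groups overlapped. The log2 difference was 0.25 with a 95% interval of -0.28 to 0.77 (adjusted p = 0.788), an interval that lies wholly above the wild type value. The responses differed by 4.13 ± 0.40 on the log2 scale (adjusted p = 8.25e-07). Between genotypes, ARLmon kidneys were higher with testosterone by 5.41 ± 0.32 on the log2 scale, or 42.6-fold (adjusted p = 3.54e-11). Prlr was also higher with vehicle, by 1.28 ± 0.26, or 2.43-fold (adjusted p = 0.00427), where 4 of 5 ARLmon libraries lay above all wild type libraries and GC078621 did not.

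Other features moved with the groups in the same libraries. Of all tested genes, 9.36% rose and 6.36% fell with testosterone in wild type. For the straight segment of the proximal tubule, 5 of 8 marker genes rose there (Atp11a, Slc22a30, Slc5a8, Slc7a13 and Cyp7b1). The summed level of the 8 was 6033 to 7643 CPM with testosterone and 2656 to 3942 CPM with vehicle. In ARLmon kidneys the sum was 1806 to 2890 CPM with testosterone and 1279 to 2267 CPM with vehicle. For the convoluted segment, 1 of 9 markers rose and 2 fell in wild type. Its sums overlapped, at 12456 to 14732 CPM with testosterone and 8534 to 15073 CPM with vehicle. Whether cell numbers or the RNA of these markers per cell changed cannot be told apart here. Of 7 podocyte markers 6 fell in wild type, the sum being 319 to 404 CPM with testosterone and 414 to 621 CPM with vehicle, against 551 to 677 and 587 to 725 CPM in ARLmon kidneys with testosterone and vehicle. The part of these cell markers in the results for Prlr and the other receptors was not tested. Prlr shares 23801 bases of its locus with the predicted gene Gm21973 on the same strand, which is not among the genes of the tables used here, so reads of the shared stretch are uncertain.

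Ghr (chromosome 15, 3317760 to 3583492, minus strand) went the other way in wild type. Testosterone libraries had 936, 921, 918, 1147 and 1128 CPM, against 645, 553, 435, 763 and 403 CPM with vehicle. All 5 testosterone libraries lay above all 5 vehicle libraries. The rise was 0.85 ± 0.20 on the log2 scale, or 1.80-fold (adjusted p = 0.00595), and it passed the test without any 1 library (adjusted p at most 0.0200, without GC078606).

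In ARLmon kidneys Ghr had 444, 465, 468, 874 and 394 CPM with testosterone, against 416, 469, 453, 453 and 275 CPM with vehicle. GC078615 was again the high library and GC078621 the low one, while the remaining 8 lay close together and overlapped. The log2 difference was 0.36 (95% interval -0.07 to 0.78, adjusted p = 0.774). The ARLmon response minus the wild type response was -0.49 (95% interval -1.09 to 0.10, adjusted p = 0.419). With testosterone, ARLmon kidneys had less Ghr than wild type kidneys by -0.93 ± 0.20 on the log2 scale (adjusted p = 0.0015), and no libraries overlapped. With vehicle the log2 difference was -0.44, with an interval of -0.86 to -0.02 (adjusted p = 0.262).

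The prolactin and growth hormone signalling list held 19 genes, of which 18 were tested. In wild type 3 rose and 2 fell with testosterone, while 9.36% of all tested genes rose and 6.36% fell. The median log2 difference of the 18 was 0.077, beside -0.034 for all tested genes. Bcl6, a transcriptional repressor that competes with STAT5 for sites, rose by 2.24 ± 0.34 to 151 ± 44.3 CPM with testosterone, against 32.0 ± 20.1 CPM with vehicle (adjusted p = 7.16e-05). The phosphatase gene Ptpn1 and the gene of the transcription factor Hnf4a rose by 0.35 ± 0.09 and 0.31 ± 0.09 on the log2 scale, calls that were lost with library size only as the scaling, in a fit of those 10 libraries alone and in the deposited log2 values. The call of Hnf4a was also lost with no filter. Igfals, which encodes a binding partner of circulating IGF1 and is induced by growth hormone in liver, fell by 1.13 ± 0.20. It averaged 10.1 ± 2.57 CPM with testosterone and 22.3 ± 5.36 CPM with vehicle.

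Cish, an inhibitor gene under STAT5, fell by 1.26 ± 0.36 (adjusted p = 0.0185). That call was lost without GC078604, GC078608, GC078609 or GC078610, where the adjusted p reached 0.0565 (without GC078610). None of the 18 changed in ARLmon. With testosterone, 6 were higher and 3 lower in ARLmon than in wild type kidneys, among them Cish (1.91 ± 0.36), Igfals (1.49 ± 0.20) and Bcl6 (-2.80 ± 0.35). Of all tested genes, 15.6% were higher and 15.5% lower in that comparison. Liver markers were low but unequal beside these results. The sum of the 4 liver markers in the tables was 15.6 to 28.6 CPM in wild type kidneys with testosterone and 37.5 to 69.2 CPM with vehicle, against 19.3 to 35.2 and 18.3 to 32.6 CPM in ARLmon kidneys with testosterone and with vehicle. Of the 4, Cps1 was counted as 0 in all ARLmon kidneys with vehicle. Their part was not tested.

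Of the corticosteroid receptors, Nr3c1 (chromosome 18, 39410545 to 39519421, minus strand) did not pass any test. It had 74.2 to 124 CPM in ARLmon kidneys with testosterone, with a median of 112, and 70.4 to 133 CPM with vehicle, with a median of 113. Wild type libraries had 84.3 to 114 CPM with testosterone, with a median of 104, and 67.9 to 138 CPM with vehicle, with a median of 105. All groups overlapped. The log2 difference in wild type was 0.01, with an interval of -0.42 to 0.44, and in ARLmon it was 0.07 with an interval of -0.36 to 0.50. ARLmon minus wild type was 0.05 with testosterone (interval -0.38 to 0.48) and -0.0014 with vehicle (interval -0.43 to 0.43).

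Nr3c2 (chromosome 8, 76899442 to 77245012, plus strand) had 18.7, 35.7, 28.6, 28.4 and 30.9 CPM in ARLmon kidneys with testosterone, against 20.7, 19.6, 23.6, 21.6 and 19.7 CPM in wild type kidneys with testosterone. In ARLmon 4 of 5 libraries lay above all wild type libraries and GC078612 lay below them. The log2 difference of 0.44 ± 0.16 passed the test narrowly (adjusted p = 0.0447). It did not pass without GC078603, GC078607, GC078608, GC078610, GC078611, GC078613, GC078614, GC078615 or GC078616 (adjusted p up to 0.138, without GC078613), nor without a filter (0.0581) or by limma-voom (0.0783). With vehicle Nr3c2 had 32.1, 19.5, 32.6, 31.2 and 24.9 CPM in ARLmon kidneys, against 24.9, 25.3, 17.2, 25.2 and 18.8 CPM in wild type kidneys, and the genotypes overlapped. The log2 difference was 0.33, with an interval of -0.00025 to 0.66 (adjusted p = 0.28). Testosterone against vehicle gave -0.09 in wild type, with an interval of -0.43 to 0.25, and 0.02 in ARLmon, with an interval of -0.31 to 0.35.

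Nr3c2 acts in the distal nephron. With testosterone, where 15.6% of all tested genes were higher in ARLmon, 4 of 6 distal convoluted tubule markers, 3 of 7 principal cell markers and 4 of 6 intercalated cell markers were higher in ARLmon than in wild type kidneys. The distal convoluted tubule markers summed to 2280.1 to 4125 CPM in ARLmon kidneys and 1884 to 2654 CPM in wild type kidneys with testosterone, and to 3257 to 3914 CPM and 2019 to 2561 CPM in ARLmon and wild type kidneys with vehicle. The principal cell sums were 542 to 909.8 CPM in ARLmon and 462 to 735 CPM in wild type kidneys with testosterone, and 580.4 to 886 CPM and 496 to 933 CPM in ARLmon and wild type kidneys with vehicle. The intercalated cell sums were 509 to 794 CPM in ARLmon and 413 to 513 CPM in wild type kidneys with testosterone, and 599.7 to 877 CPM and 456 to 694 CPM in ARLmon and wild type kidneys with vehicle. No marker of these 3 lists was at 0. The higher markers were not particular to the distal nephron, since in the same comparison 7 of 7 podocyte, 6 of 8 endothelial and 6 of 7 smooth muscle and renin cell markers were higher in ARLmon. With vehicle 2 of 6 distal convoluted tubule and 2 of 6 intercalated cell markers were higher, where 1.99% of all genes were, and the principal cell sums averaged 719 CPM in ARLmon and 729 CPM in wild type kidneys. Whether any of these bear on the level of Nr3c2 was not tested.

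The glucocorticoid response list held 20 genes, of which 19 were tested, and in wild type 2 rose and 1 fell, a share near the 15.7% of all tested genes that were called. Hsd11b1, whose enzyme regenerates active glucocorticoid, rose by 2.84 ± 0.17 to 459 ± 99.9 CPM with testosterone, against 63.9 ± 9.90 CPM with vehicle. Fkbp5, a chaperone gene that androgen receptors as well as glucocorticoid receptors induce, rose by 1.42 ± 0.28 (adjusted p = 0.00107). The metallothionein gene Mt1 fell by 0.84 ± 0.27, a call lost without GC078604, GC078606, GC078607, GC078608, GC078609 or GC078610 (adjusted p up to 0.121, without GC078604). Mt1 also lost its call without both GC078604 and GC078618 and by limma-voom. The list's median was -0.187, beside -0.034 for all tested genes.

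In ARLmon none of the 19 changed with testosterone, and Hsd11b1 averaged 45.6 ± 11.2 CPM with testosterone and 47.9 ± 6.42 CPM with vehicle. Between genotypes with testosterone, 4 were lower in ARLmon and 1 higher, beside 31.1% of all tested genes called. Hsd11b1 was lower by -3.33 ± 0.18, Fkbp5 by -2.60 ± 0.29 and the transcription factor gene Zbtb16 by -1.71 ± 0.47, and Ddit4, the gene of a stress-induced mTOR inhibitor, by -1.42 ± 0.47. Cebpd was the higher one, at 1.13 ± 0.40, and lost its call without GC078607, GC078608, GC078609, GC078610, GC078612 or GC078613 (adjusted p up to 0.0946, without GC078613), while without GC078611 its log2 difference was 1.74. Zbtb16 lost its call without GC078611 (0.0650, at a log2 difference of -1.12) and in the deposited log2 values. Ddit4 lost its call without GC078611, GC078613 or GC078615 (up to 0.221, without GC078611, where the log2 difference was -0.64), by limma-voom and in the deposited log2 values. With vehicle, Fkbp5 (-1.18 ± 0.28, not called without GC078605, with an adjusted p of 0.0553, in a fit of the 2 groups alone, with 0.0842, or in the deposited log2 values) and the acute-phase gene Serpina3n (-2.52 ± 0.67) were lower in ARLmon than in wild type kidneys. The call of Serpina3n was lost without GC078605, GC078606, GC078617, GC078618, GC078619 or GC078620 (up to 0.105, without GC078606, where the log2 difference was -1.57), in a fit of the 2 groups alone, without both GC078604 and GC078618, in the deposited log2 values and by limma-voom (0.252).

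Of 18 mineralocorticoid response genes, all tested, 1 rose and 2 fell in wild type with testosterone, a share near the 15.7% of all tested genes. Scnn1a, the alpha subunit of the epithelial sodium channel, fell by 0.58 ± 0.15 (adjusted p = 0.00852). Furin, a protease gene, rose by 0.33 ± 0.10 and Wnk4, a kinase gene that controls sodium chloride transport, fell by 0.33 ± 0.11. Furin's call was lost without GC078602, GC078603, GC078604, GC078610 or GC078611 (adjusted p up to 0.105, without GC078611) and Wnk4's without GC078604, GC078606, GC078607, GC078609, GC078610 or GC078611 (adjusted p up to 0.107, without GC078604). Both were also lost in a fit of those 10 libraries alone. Furin was lost as well with library size only, with no filter, without both GC078604 and GC078618 and in the deposited log2 values. With testosterone, 7 of the 18 were higher and 1 was lower in ARLmon than in wild type kidneys, with a median log2 difference of 0.374 beside 0.039 for all genes. Of all tested genes, 15.6% were higher and 15.5% lower in that comparison. The thiazide-sensitive cotransporter gene Slc12a3, itself a distal convoluted tubule marker, led at 0.76 ± 0.12, with 1429.5 ± 291 CPM in ARLmon and 846 ± 101 CPM in wild type kidneys. The potassium channel gene Kcnj1 (0.51 ± 0.11) and Wnk4 (0.45 ± 0.11) were also higher, and Furin was the lower one (-0.51 ± 0.10), a call lost in the deposited log2 values (adjusted p = 0.0572). Kcnj1 is itself a thick ascending limb marker, and principal cell markers are also among the higher genes of the 18. The counts of this list and of the cell markers therefore share genes. With vehicle Slc12a3 alone of the 18 was higher in ARLmon (0.48 ± 0.12), beside 1.99% of all tested genes. That call was lost without GC078602, GC078603, GC078605, GC078606, GC078617 or GC078621 (adjusted p up to 0.0745, without GC078617).

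Esr1 (chromosome 10, 4611593 to 5005614, plus strand) was the least abundant receptor per kilobase in most groups, as given above. Wild type libraries had 20.1, 21.8, 16.6, 22.2 and 12.9 CPM with testosterone, against 18.4, 17.8, 13.2, 13.1 and 5.92 CPM with vehicle. The groups overlapped, and the low vehicle library GC078606 held 52 reads of the gene. The log2 difference was 0.43, with an interval of -0.06 to 0.93 (adjusted p = 0.232). In ARLmon Esr1 ran from 11.3 to 21.997 CPM with testosterone and from 8.36 to 13.4 CPM with vehicle, and the log2 difference was 0.38 (95% interval -0.11 to 0.88, adjusted p = 0.774). ARLmon minus wild type was -0.37 with testosterone (interval -0.87 to 0.12) and -0.32 with vehicle (interval -0.81 to 0.17).

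Of 14 oestrogen signalling genes only 7 had the counts to be tested. Esr2, the gene of the other nuclear oestrogen receptor, held 51 reads over the 20 libraries and was not tested. In wild type 1 of the 7 rose with testosterone, beside 15.7% of all tested genes called. It was Hsd17b2, whose enzyme inactivates oestradiol and testosterone. Hsd17b2 rose by 0.95 ± 0.26 to 15.2 ± 2.88 CPM against 7.92 ± 0.876 CPM with vehicle (adjusted p = 0.0131), a call lost in the deposited log2 values. In ARLmon kidneys Hsd17b2 was lower than in wild type kidneys both with testosterone (-2.43 ± 0.28) and with vehicle (-1.29 ± 0.27). The membrane oestrogen receptor gene Gper1 was higher in ARLmon with testosterone by 0.68 ± 0.23, which did not hold without GC078607, GC078608, GC078610, GC078613 or GC078614 (adjusted p up to 0.0909, without GC078610).

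Thra (chromosome 11, 98740638 to 98769006, plus strand) fell slightly with testosterone in wild type. It had 57.5, 62.9, 66.4, 61.0 and 68.4 CPM with testosterone, against 74.2, 76.4, 81.3, 81.2 and 74.6 CPM with vehicle. All testosterone libraries lay below all vehicle libraries. The log2 difference was -0.29 ± 0.09 (adjusted p = 0.03). The call was lost without GC078604, GC078605, GC078607, GC078608 or GC078610 (adjusted p up to 0.0834, without GC078607) and without both GC078604 and GC078618 (0.053).

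In ARLmon Thra had 74.1, 79.4, 78.2, 54.8 and 69.7 CPM with testosterone, against 74.2, 85.9, 81.4, 87.4 and 77.5 CPM with vehicle. GC078615, which was high for 6 receptors, was the lowest for Thra, and the groups overlapped. The log2 difference was -0.19, with an interval of -0.38 to -0.0033 (adjusted p = 0.774), and the difference between the responses was 0.10, with an interval of -0.16 to 0.37. ARLmon minus wild type was 0.17 with testosterone (interval -0.02 to 0.36) and 0.07 with vehicle (interval -0.12 to 0.25). Thra overlaps the clock gene Nr1d1 on the opposite strand over 1075 bases. The strand setting of the counting is not given in the sources used here, and Nr1d1 averaged 99.6 ± 15.2 CPM in wild type kidneys with testosterone and 88.9 ± 34.9 CPM with vehicle, so that shared reads make Thra uncertain.

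Thrb (chromosome 14, 17660261 to 18038090, plus strand) had 50.4, 38.8, 48.0, 53.4 and 45.0 CPM in wild type kidneys with testosterone, against 45.2, 37.6, 25.3, 42.7 and 23.6 CPM with vehicle. The vehicle group was wide and reached into the testosterone group. The log2 difference of 0.43 had an interval of 0.03 to 0.82 and an adjusted p of 0.135, so it did not pass over all genes. In ARLmon Thrb ran from 27.6 to 47.2 CPM with testosterone and from 22.4 to 42.5 CPM with vehicle, at a log2 difference of 0.12. With testosterone ARLmon kidneys had a log2 value -0.41 from that of wild type kidneys (95% interval -0.80 to -0.01, adjusted p = 0.111). This passed without GC078615 (-0.53, adjusted p = 0.041) and in a fit of those 10 libraries alone (-0.39, adjusted p = 0.028). With vehicle ARLmon minus wild type was -0.10 (interval -0.49 to 0.29).

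Of 19 genes of thyroid hormone action 17 were tested, and in wild type 3 rose and 1 fell, beside 15.7% of all tested genes called. Me1, the malic enzyme gene that thyroid hormone induces in liver, rose by 0.96 ± 0.11 to 657 ± 64.3 CPM, against 337 ± 48.7 CPM with vehicle (adjusted p = 1.29e-06). The gene of the thyroxine carrier Ttr rose by 0.80 ± 0.23, which was lost without GC078606 (adjusted p = 0.0511). Dio1, whose deiodinase turns thyroxine into the active hormone, fell by 1.80 ± 0.21 to 14.8 ± 3.07 CPM with testosterone, against 51.6 ± 10.85 CPM with vehicle (adjusted p = 2.22e-06).

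In ARLmon kidneys Dio1 averaged 111 ± 15.8 CPM with testosterone and 133 ± 43.05 CPM with vehicle. It was thus higher than in wild type kidneys with testosterone (2.91 ± 0.22) and with vehicle (1.36 ± 0.20). Me1 and Ttr were lower in ARLmon than in wild type kidneys under both treatments, Me1 by -1.43 ± 0.11 with testosterone and -0.49 ± 0.11 with vehicle, and Ttr by -1.68 ± 0.23 and -1.14 ± 0.23. In all, 3 of the 17 were higher and 5 lower in ARLmon with testosterone, and 1 higher and 3 lower with vehicle. Of all tested genes, 31.1% were called between the genotypes with testosterone and 4.37% with vehicle. The genotypes' responses differed for Me1 (-0.94 ± 0.15) and Dio1 (1.54 ± 0.28).

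Insr (chromosome 8, 3122061 to 3279617, minus strand) did not pass any test. It averaged 142 ± 19.8 CPM in ARLmon kidneys with testosterone and 136 ± 21.1 CPM with vehicle, and 142 ± 9.83 CPM in wild type kidneys with testosterone and 139.5 ± 26.2 CPM with vehicle. The log2 difference with testosterone was 0.02 in wild type (interval -0.25 to 0.29) and 0.06 in ARLmon (interval -0.21 to 0.33). ARLmon minus wild type was -0.0020 with testosterone (interval -0.27 to 0.27) and -0.04 with vehicle (interval -0.31 to 0.23). Among the wild type testosterone libraries GC078608 was low, at 125 CPM against 142 to 148 CPM in the rest of its group.

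Gcgr (chromosome 11, 120530699 to 120538986, plus strand) had 31.5, 42.0, 41.6, 37.9 and 34.6 CPM in wild type kidneys with testosterone, against 44.4, 54.8, 77.6, 44.0 and 46.1 CPM with vehicle. The groups did not overlap, though the highest testosterone and the lowest vehicle libraries lay close, and GC078604 stood above the other vehicle libraries. The fall was -0.51 ± 0.15 on the log2 scale (adjusted p = 0.0248). Without GC078604 it was -0.33 and did not pass (adjusted p = 0.0848), and it did not pass either without GC078607, GC078610 or GC078611 (0.0716, 0.0515 and 0.0574 in that order).

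In ARLmon Gcgr had 66.2, 62.0, 53.0, 46.0 and 59.7 CPM with testosterone, against 58.8, 77.5, 50.5, 58.7 and 60.1 CPM with vehicle. The groups overlapped, and the log2 difference was -0.09 with an interval of -0.40 to 0.22 (adjusted p = 0.857). The difference between the responses was 0.42, with an interval of -0.02 to 0.86 (adjusted p = 0.336). With testosterone all ARLmon libraries lay above all wild type libraries, by 0.61 ± 0.15 on the log2 scale (adjusted p = 0.00415), which passed without any 1 library. With vehicle the log2 difference was 0.19, with an interval of -0.12 to 0.50. The antisense gene Gm11789 overlaps Gcgr over 1086 bases and averaged 2.65 ± 0.67 CPM in wild type kidneys with testosterone and 3.61 ± 1.05 CPM with vehicle, so reads at that end are uncertain.

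The insulin and glucagon signalling list held 25 genes, all tested, of which 2 rose and 3 fell in wild type with testosterone, beside 15.7% of all tested genes. Their median log2 difference was -0.043, against -0.034 for all tested genes. The gene of the related IGF1 receptor, Igf1r, rose by 0.89 ± 0.17 to 87.5 ± 9.31 CPM, against 47.3 ± 12.96 CPM with vehicle (adjusted p = 0.000973), and Fbp1, a gluconeogenic enzyme gene, by 0.31 ± 0.10. Igfbp1, which insulin represses in liver, fell by 2.01 ± 0.42 to 5.66 ± 3.95 CPM, against 22.1 ± 6.70 CPM with vehicle (adjusted p = 0.00185). The adenylyl cyclase gene Adcy6 and the insulin receptor inhibitor gene Grb14 fell by 0.31 ± 0.09 and 0.43 ± 0.13.

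Of these, Fbp1 lost its call without GC078602, GC078605, GC078606, GC078607, GC078608 or GC078610 (adjusted p up to 0.0895, without GC078610), with no filter, with library size only, in a fit of those 10 libraries alone and in the deposited log2 values. Adcy6 lost its call without GC078603, GC078607 or GC078610 (up to 0.0564, without GC078607). Grb14 lost its call without GC078603, GC078604, GC078606, GC078609 or GC078610 (up to 0.0878, without GC078610) and without both GC078604 and GC078618. With testosterone, 5 of the 25 were higher and 2 lower in ARLmon than in wild type kidneys, beside 31.1% of all tested genes called. Igfbp1 (1.66 ± 0.42), Grb14 (0.66 ± 0.13) and Adcy6 (0.51 ± 0.09) were among the higher ones. Igf1r was lower by -1.10 ± 0.17 and Fbp1 by -0.30 ± 0.10, the call of Fbp1 being lost without GC078607, GC078610, GC078613, GC078614 or GC078615 (up to 0.0671, without GC078610), with no filter, with library size only and in the deposited log2 values.

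**Figure D3:**
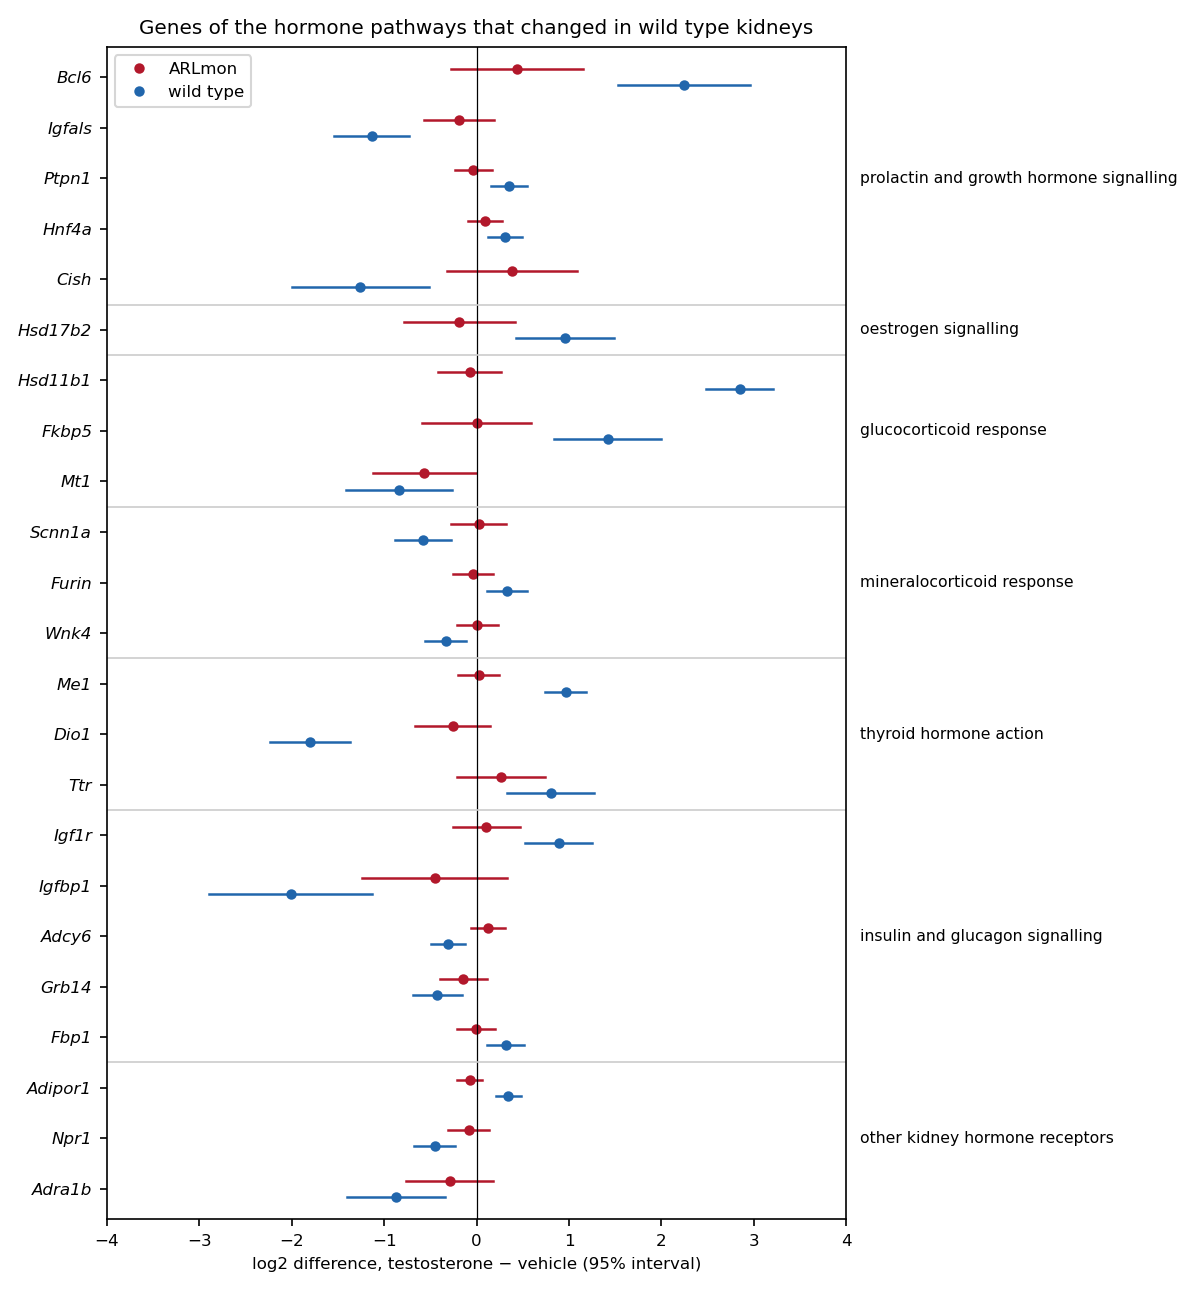
Log2 difference of testosterone over vehicle (horizontal axis, with 95% intervals) for the genes of the hormone pathway lists that changed in wild type kidneys and are reported here, with ARLmon above wild type for each gene. Genes are grouped by list on the right. Hsd11b1 stands highest in wild type, at 2.84, and Igfbp1 lowest, at -2.01. The genes were chosen by their wild type call, so the wild type values are shown as a description.

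Among 37 other hormone receptors of the kidney, 31 were tested, and in wild type 3 rose and 2 fell with testosterone, a share near the 15.7% of all tested genes. The adiponectin receptor gene Adipor1 rose by 0.34 ± 0.06, and Igf1r is counted here as well. Npr1, the receptor of atrial natriuretic peptide, fell by 0.45 ± 0.11 and the alpha-1B adrenergic receptor gene Adra1b by 0.87 ± 0.25, and the call of Adra1b was lost without GC078607, GC078608 or GC078610 (adjusted p up to 0.0612, without GC078607) and by limma-voom. The median log2 difference of the 31 was -0.164, beside -0.034 for all tested genes. With testosterone, 3 were higher and 5 lower in ARLmon than in wild type kidneys, among them Adipor1 at -0.42 ± 0.06 and Npr1 at 0.56 ± 0.11. Of all tested genes, 31.1% were called in that comparison.

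**Figure D4:**
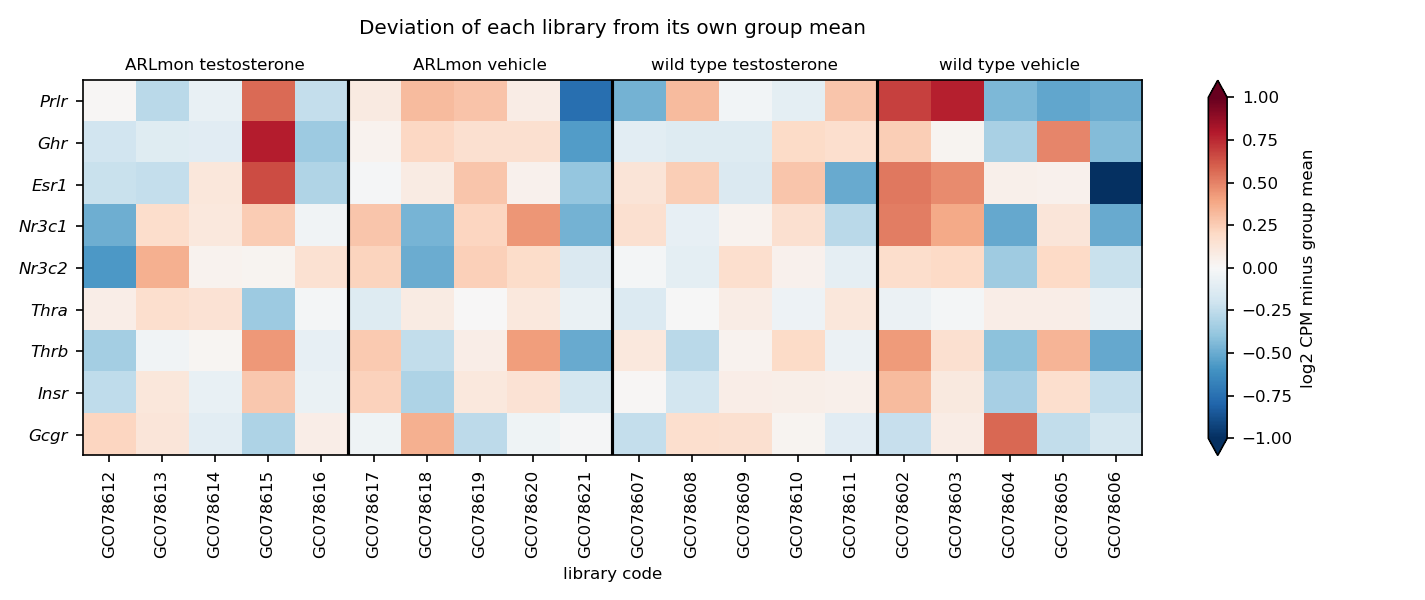
Deviation of each library (columns, in the 4 groups) from the mean log2 CPM of its own group for each receptor gene (rows), with red above and blue below the group mean. GC078615 is above its group for most receptors and below it for Thra and Gcgr, and GC078606 is lowest for Esr1, at -1.09.

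Some libraries held the highest or lowest value of their group for several receptors at once. GC078615 was the highest ARLmon testosterone library for 6 of the 9 (Prlr, Ghr, Esr1, Nr3c1, Thrb and Insr) and the lowest for Thra and Gcgr. GC078612 was the lowest ARLmon testosterone library for 4 (Nr3c1, Nr3c2, Thrb and Insr) and the highest for Gcgr. GC078621 was the lowest ARLmon vehicle library for 5 (Prlr, Ghr, Esr1, Nr3c1 and Thrb). GC078610 was the highest wild type testosterone library for 4 (Ghr, Esr1, Nr3c1 and Thrb). In wild type kidneys with vehicle, GC078602 was highest for 4 and GC078604 was lowest for Nr3c1, Nr3c2 and Insr and highest for Thra and Gcgr. GC078618 was mixed, being highest of its group for Prlr, Ghr and Gcgr and lowest for Nr3c2 and Insr. How often chance gives such counts in groups of 5 libraries was not tested. On the second principal component of all tested genes the extreme libraries were GC078604 and GC078618 at one end, at 50.2 and 44.7, and GC078615 at the other, at -40.6. The part of this axis in the receptor results was not tested beyond leaving libraries out.

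The genes whose log2 CPM followed Prlr most closely over the 20 libraries were found among 10817 tested genes averaging 5 CPM or more. Predicted and unnamed genes and genes encoded by mitochondrial DNA were left out of the ranking. These 20 points share 4 group means, so the coefficients mainly describe the group pattern. Stab2, a scavenger receptor gene, stood first with a Pearson r of 0.97, followed by Cyp2c44 (0.97), Kynu (0.96), Hacl1 (0.96) and Lyplal1 (0.96). Kynu, which encodes kynureninase, averaged 50.1 and 47.8 CPM in ARLmon kidneys with testosterone and with vehicle, and 3.11 and 30.1 CPM in wild type kidneys with testosterone and with vehicle. At the opposite end stood Ybx1 (-0.98), Lrrc3 (-0.98), Ccbl1 (-0.97), Ephx2 (-0.97) and Def8 (-0.97). Ybx1, a nucleic acid-binding protein gene, averaged 277 and 281 CPM in ARLmon kidneys with testosterone and vehicle, and 743 and 339 CPM in wild type kidneys with testosterone and vehicle.

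Ghr was followed most closely by Ahcyl1 (r = 0.97) and Chpt1 (0.96), Esr1 by Acsm5 (0.88) and Cmah (0.87), and Nr3c1 by Fgd4 and Cep120 (0.92 each). The closest to Nr3c2 were Slit2 and Cdk14 (0.94 each), to Thra Fam20a and Erbb2 (0.84 each), and to Thrb Scai (0.96) and Rab11fip2 (0.95). Insr was followed by Tbc1d32 (0.96) and Hook3 (0.95), and Gcgr by Psme1 and Slc22a17 (0.94 each). For Nr3c1 and Insr, whose group means hardly differed, these coefficients describe variation between libraries of one group.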

How the data were processed

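Kidney RNA of 20 libraries was sequenced after poly(A) selection with a stranded kit, per the labels. Per the submitters' processing notes, FastQC 0.11.7, HISAT2, SAMtools 1.5, HTSeq 2.7.14 and DESeq2 were used with mm10. Annotation and strand setting are not given in the sources used here. The authors deposited 4 tables of raw read counts per gene, each with 10 libraries, and a table of log2 values whose normalization is not stated in its header.

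The tables agreed on every shared value and were joined, and a gene absent from the table of a library was set to 0 (12045 values). Counts were tested with edgeR 4.0.16 (R 4.3.3): filterByExpr, TMM factors, 4 group means over all 20 libraries, the quasi-likelihood test and Benjamini-Hochberg adjustment over 15549 genes. Intervals are 95% intervals of the fit. The receptors, gene lists and marker lists were chosen with earlier results of these data known, so their patterns are not independent evidence. All 9 receptors are named. Of each list up to 4 called members with the smallest p and those against the majority could be named, and all members are counted, though some members that the rule names are not reported here. Exon lengths and overlaps are from GENCODE M21 and promoters from RefSeq (GRCm38.p6). Alternatives were RLE factors, library size only, no filter, 1 CPM in 5 libraries, DESeq2 1.42.0, limma-voom (limma 3.58.1), the 10 most abundant genes left out, 2 groups alone, the deposited log2 values, and libraries left out. The test was checked on simulated data.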

Additional observations from a re-analysis of the deposited data

Results flagged for a closer look

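Among the 36 gene and group combinations of the 9 receptors, 4 held a library far from the other 4 of its group. Chance would give about 1 in 20 if the 36 were independent, which they are not, since the 9 receptors share libraries. In ARLmon kidneys with testosterone, GC078615 had 323 CPM of Prlr, against 182 to 220.4 CPM in the others, and 874 CPM of Ghr, against 394 to 468 CPM. In ARLmon kidneys with vehicle, GC078621 had 275 CPM of Ghr, against 416 to 469 CPM. In wild type kidneys with testosterone, GC078608 had 125 CPM of Insr, against 142 to 148 CPM.

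The response to testosterone differed between ARLmon and wild type kidneys, by the edgeR test of the difference itself, for 1 receptor and for 7 of the pathway genes reported here. On the log2 scale (ARLmon effect minus wild type effect) the difference was 4.13 for Prlr, 1.54 for Dio1 and 0.94 for Igfals, which fell in wild type. It was -2.92 for Hsd11b1, -1.81 for Bcl6, -1.42 for Fkbp5, -0.94 for Me1 and -0.42 for Adipor1, which rose in wild type. The calls of Bcl6, Fkbp5 and Igfals had adjusted p values of 0.029, 0.0397 and 0.0434 and were lost without any one of several libraries, where the adjusted p reached 0.0626 (Bcl6, without GC078619), 0.0807 (Fkbp5, without GC078611) and 0.0917 (Igfals, without GC078610).

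The call of Adipor1 (adjusted p = 0.0076) was lost with library size only, with no filter and in the deposited log2 values.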

How the results depend on the processing

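The calls of Prlr and Ghr, 6 of the 10 called receptor results, passed under every alternative run. So did the call of Gcgr in ARLmon versus wild type kidneys with testosterone. Of 299 values of the 10 results, 278 kept their call, 21 lost it and none changed sign. The losses were those of Gcgr and Thra in wild type and of Nr3c2 between genotypes with testosterone, as given above. The number of receptors called in wild type was 4, and 2 to 4 with 1 library left out (2 without GC078604, GC078607 or GC078610), the 2 being Prlr and Ghr. Of the 35 results not called, 5 values passed under an alternative. For Thra in ARLmon versus wild type kidneys with testosterone these were 0.42 with library size only (adjusted p = 0.00168), 0.40 in the deposited log2 values (0.00435) and 0.25 without GC078615 (0.017). Library size only moved the median of all genes in that comparison to 0.28, against 0.039, and in wild type to -0.18, against -0.034. It split the calls in wild type into 897 higher of 3584, against 1455 higher of 2444, and those of ARLmon versus wild type with testosterone into 5690 higher of 6903, against 2431 of 4842. Of the calls it kept, library size only moved Thra in wild type to -0.44 and Nr3c2 in ARLmon versus wild type with testosterone to 0.68. It moved Adipor1 to 0.19 in wild type and -0.17 in ARLmon versus wild type with testosterone, and with testosterone Wnk4 between the genotypes to 0.69 and Furin to -0.27. In the deposited log2 values Igf1r was 0.53 in wild type and -0.53 in ARLmon versus wild type with testosterone.

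Values near 0 that were not called took the other sign in 79 of 1341 receptor values, over 15 results, with an adjusted p of at least 0.138. The cause was not tested. For testosterone versus vehicle in wild type, Insr was -0.13 with library size only, -0.0011 with no filter, -0.055 without both GC078604 and GC078618 and -0.10 in the deposited log2 values. Nr3c1 was -0.14, -0.012, -0.10 and -0.070 under the same settings and -0.0054 with the 10 libraries alone. For ARLmon without GC078604 and GC078618, Gcgr was 0.0069, Insr -0.012, Nr3c1 -0.037 and Nr3c2 -0.081. For ARLmon versus wild type with testosterone, Insr was 0.24 with library size only, 0.0073 with no filter, 0.0015 with 1 CPM in 5 libraries, 0.011 with the 10 libraries alone and 0.22 in the deposited values. With vehicle, Insr was 0.028 with library size only and 0.022 in the deposited values. Nr3c1 was 0.066 and 0.070 there, 0.0010 with 1 CPM in 5 libraries and 0.011 by limma-voom. The difference between the responses for Esr1 was 0.12 and 0.0013 with library size only and in the deposited values.

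With 1 library left out, testosterone versus vehicle in wild type ranged between -0.055 and 0.11 for Insr and -0.10 and 0.15 for Nr3c1. In ARLmon it ranged between -0.15 and 0.0072 for Gcgr, -0.014 and 0.12 for Insr, -0.040 and 0.18 for Nr3c1, -0.082 and 0.14 for Nr3c2 and -0.0029 and 0.24 for Thrb. ARLmon versus wild type ranged between -0.076 and 0.056 for Insr and -0.012 and 0.15 for Nr3c1 with testosterone. With vehicle it ranged between -0.12 and 0.045 for Insr, -0.12 and 0.14 for Nr3c1 and -0.22 and 0.0097 for Thrb. The difference between the responses ranged between -0.26 and 0.12 for Esr1, -0.048 and 0.11 for Insr and -0.085 and 0.17 for Nr3c1.

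No paired analysis was possible because the columns carry library codes and not the replicate numbers of the labels. Depth limits Prlr in wild type kidneys with testosterone (27 to 65 reads per library) and Esr1 (52 reads in GC078606) most. Levels per kilobase moved by more than the spread with the longest transcript as length in 24 of 36 gene and group combinations.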
